A study of Mus musculus with 2 samples.

Results

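The genes described here are 28 genes of sterol and fatty acid synthesis, among the 32285 gene rows of the deposited count tables. They were taken by their symbols, with no filter on their values, from a list made with earlier results of these data known. Of these, 7 genes lead from mevalonate synthesis to squalene and 10 from squalene to cholesterol. Another 4 control the sterol regulatory element binding proteins (SREBPs), 6 act in fatty acid synthesis and 1 in sterol transport. The counts came from mouse embryos at E13.5 in which Isl1-Cre, active in descendants of cardiopharyngeal and other Isl1-expressing progenitors, had recombined R26R-eYFP, a Cre-dependent fluorescent reporter. The control embryos carried Isl1-Cre and R26R-eYFP, and the mutant embryos carried both together with Pik3caH1047R, a Cre-dependent allele encoding an activated catalytic subunit of phosphoinositide 3-kinase. eYFP-positive cells were sorted from the body above the liver of 3 pooled embryos per genotype, on a mixed C57BL/6J and ICR background, although the tissue label reads pharyngeal arch, and each pool gave 1 library of droplet single-cell RNA sequencing.

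Cholesterol and isoprenoids are built from acetyl-CoA through mevalonate and squalene, and fatty acids from acetyl-CoA through malonyl-CoA. Both routes are switched on by the SREBP transcription factors, which the escort protein Scap carries from the endoplasmic reticulum to the Golgi for cleavage, and which Insig proteins hold back when sterols are abundant. Growing and dividing cells need these products for membranes, developing neurons are known for high sterol synthesis, and PI3K-AKT signalling is known to raise SREBP activity in other systems.

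After the study's limits on genes per cell (over 2000 and under 9000) and mitochondrial UMIs (under 10%), 2783 control cells with a median of 20412 unique molecular identifiers (UMIs) and 3489 mutant cells with a median of 16839 UMIs remained. Of these, 12 cell barcodes occurred in both libraries. The libraries differed in the sex of their cells: 95.5% of control cells and 33.6% of mutant cells were female-like (an Xist UMI and no UMI of 4 Y-linked genes), so the ratios of each class were also taken in female-like cells, while the cluster, phase and per-cell values are over all cells. Clusters were built without the 28 genes and 34 other lipid genes, named only from marker lists, and 7 classes with at least 50 cells in each library were compared. These were endothelial cell (EC)-like cells (161 control and 747 mutant), mesenchyme-like cells (977 and 634), branchial muscle-like cells (889 and 840), epithelium-like cells (212 and 305), neuron-like cells (192 and 467), cardiomyocyte-like cells (54 and 184) and mesothelium-like cells (70 and 65). No marker of a class was at 0 in that class in either library, but their sum, in UMIs per 1000000 UMIs of the class (CPM), differed between libraries in several classes. It was 6137 CPM in control and 6159 CPM in mutant EC-like cells, 10646 and 10896 CPM in neuron-like, 4661 and 3703 CPM in branchial muscle-like, 8233 and 4879 CPM in mesenchyme-like, 60069 and 41060 CPM in cardiomyocyte-like, 2633 and 4182 CPM in epithelium-like and 2262 and 3015 CPM in mesothelium-like cells. The part of these shifts in the results below was not tested. All intervals are 95% intervals for counting error only. With 1 library per genotype, differences between embryos, sexes, dissections and genotypes cannot be told apart by any test, and no p-value is given.

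The promoters of the genes are shown first, because SREBPs and their partner NF-Y bind such sequences and the genes are known to be controlled together. RefSeq promoter windows of build GRCm38.p6, from 250 bases before to 50 bases after the start, were found for 22 of the 28 genes. Fdft1, Fdps, Scd1, Scd2, Sqle and Stard4 had no entry. The letters CCAAT, the core of an NF-Y site, occurred on either strand in the windows of 19 of the 22 genes, against 41.1% of all 27025 genes with a window. The letters TCACNCCA, a shortened sterol regulatory element, occurred in 3 of the 22, Hmgcs1, Msmo1 and Srebf2, against 4.97% of all genes. This shorter form was searched after TCACNCCAC, with 1 more letter, had been found in 1 of the 22 (Hmgcs1) and 1.44% of all genes. Scap, Acaca and Elovl6 held neither motif in their windows. The window found for Acaca (chr11:84195188-84195487) lies inside the gene, which is annotated from 84129672 on the + strand. The sequence at that annotated start was not searched. The 250 bases before the start follow for Hmgcs1, Msmo1 and Srebf2 and, of the genes with neither motif, for Scap. They are written 5′ to 3′ on the gene's strand, with CCAAT (or ATTGG on the other strand) and TCACNCCA in capitals. They lie at chr13:119690101-119690350 (+) for Hmgcs1, chr8:64733579-64733828 (-) for Msmo1, chr15:82147019-82147268 (+) for Srebf2 and chr9:110333038-110333287 (+) for Scap.
Hmgcs1: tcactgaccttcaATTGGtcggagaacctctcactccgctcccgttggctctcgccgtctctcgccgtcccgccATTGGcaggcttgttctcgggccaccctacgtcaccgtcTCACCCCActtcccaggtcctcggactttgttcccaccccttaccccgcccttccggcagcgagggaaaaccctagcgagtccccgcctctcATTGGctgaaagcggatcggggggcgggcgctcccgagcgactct
Msmo1: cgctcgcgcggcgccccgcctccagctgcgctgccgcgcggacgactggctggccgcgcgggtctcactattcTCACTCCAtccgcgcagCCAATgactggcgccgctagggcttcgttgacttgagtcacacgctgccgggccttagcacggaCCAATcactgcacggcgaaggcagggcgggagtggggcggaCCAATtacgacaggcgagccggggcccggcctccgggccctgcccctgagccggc
Srebf2: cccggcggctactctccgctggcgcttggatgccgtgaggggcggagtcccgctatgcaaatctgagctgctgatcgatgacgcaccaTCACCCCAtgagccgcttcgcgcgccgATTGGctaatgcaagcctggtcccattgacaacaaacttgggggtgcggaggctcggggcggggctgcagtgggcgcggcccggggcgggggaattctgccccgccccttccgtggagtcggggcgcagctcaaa
Scap: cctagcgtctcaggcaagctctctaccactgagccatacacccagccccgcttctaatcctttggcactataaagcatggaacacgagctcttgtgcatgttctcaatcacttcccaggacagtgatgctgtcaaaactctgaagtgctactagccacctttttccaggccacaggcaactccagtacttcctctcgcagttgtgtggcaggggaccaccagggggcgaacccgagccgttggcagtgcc
A match to these letters is a description of the sequence and does not show binding.

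Among the 7 compared classes, neuron-like cells carried the highest level of the genes and cardiomyocyte-like cells the lowest. Summed over the 28 genes, the level in the control library was 2746 CPM in neuron-like cells, 1664 CPM in epithelium-like cells, 1571 CPM in mesenchyme-like cells, 1351 CPM in EC-like cells, 1195 CPM in branchial muscle-like cells, 1072 CPM in mesothelium-like cells and 629 CPM in cardiomyocyte-like cells. How many of all genes were highest or lowest in each class was not taken, so the next counts have no background. Of the 28 genes, 23 were highest in neuron-like cells and 25 were lowest in cardiomyocyte-like cells of the control library, and 22 and 17 were so in the mutant library. The exceptions in the control library were Stard4, a carrier that moves cholesterol through the cytosol, highest in EC-like cells at 93.8 CPM, Insig1 in mesenchyme-like cells at 48.3 CPM, Srebf1 in epithelium-like cells at 39.4 CPM, Elovl6 in branchial muscle-like cells at 97.6 CPM and Scd1 in mesothelium-like cells at 10.6 CPM. Stard4 stood apart in EC-like cells in the mutant library too, at 92.3 CPM against 17.2 to 43.3 CPM in the other 6 classes.

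In the mutant library the sum was higher in all 7 classes. It was 3734 CPM in neuron-like cells, 2272 CPM in epithelium-like cells, 2103 CPM in mesenchyme-like cells, 1818 CPM in branchial muscle-like cells, 1511 CPM in EC-like cells, 1241 CPM in mesothelium-like cells and 1186 CPM in cardiomyocyte-like cells. The log2 ratio of mutant over control of this sum was 0.16 (0.12 to 0.21) in EC-like cells, 0.21 (0.11 to 0.31) in mesothelium-like cells, 0.42 (0.40 to 0.45) in mesenchyme-like, 0.44 (0.41 to 0.48) in neuron-like, 0.45 (0.41 to 0.49) in epithelium-like, 0.60 (0.58 to 0.63) in branchial muscle-like and 0.91 (0.78 to 1.05) in cardiomyocyte-like cells. The intervals of the EC-like and mesothelium-like ratios overlapped, and with edgeR's TMM factor in place of the class total the values were 0.28 in EC-like and 0.086 in mesothelium-like cells.

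**Figure D1:**
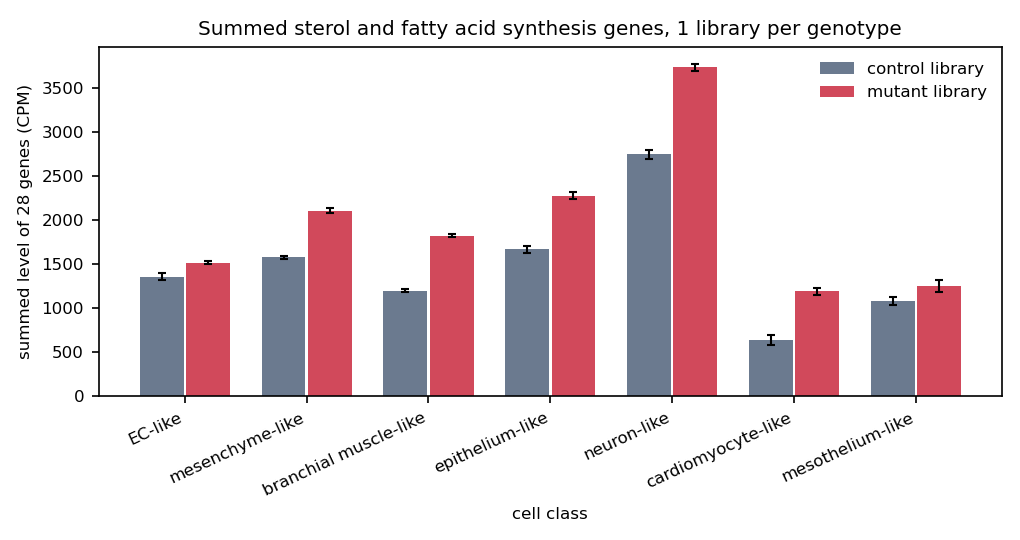
Summed level of the 28 genes, in CPM of all UMIs of a class, for each class of cells in the control (grey) and the mutant (red) library; bars are single libraries and error bars are 95% exact Poisson intervals. Neuron-like cells were highest at 2746 and 3734 CPM, cardiomyocyte-like cells were lowest at 629 and 1186 CPM, and the mutant bar was the taller in each class.

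The difference was also seen in the median cell of 5 classes. In cells thinned to 5000 UMIs, the median number of UMIs from the 28 genes per cell was 11 in control and 16 in mutant neuron-like cells, 5 and 8 in branchial muscle-like cells, 6 and 8 in mesenchyme-like cells, 7 and 9 in epithelium-like cells and 2 and 5 in cardiomyocyte-like cells. It was 6 in both libraries of EC-like cells and 5 in both of mesothelium-like cells. The upper quartile was higher in the mutant library in each class, with 9 and 10 UMIs in EC-like cells and 18 and 24 UMIs in neuron-like cells.

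Gene by gene, 193 pairs of a gene and a class had at least 20 UMIs over both libraries. In 153 of them the level was higher in the mutant library, the interval of the log2 ratio lay above 0 in 107 and it lay below 0 in 9. In EC-like cells 19 of 28 genes were higher (43.4% of all genes with as many UMIs). In mesenchyme-like and branchial muscle-like cells 24 and 25 were higher (52.4% of all genes in each). In epithelium-like and neuron-like cells it was 23 and 24 (43.9% and 42.7%). In cardiomyocyte-like cells it was 24 of 25 (46.4%) and in mesothelium-like cells 14 of 28 (53.2%). By class, intervals above 0 were counted for 10 of 28 genes in EC-like cells (16.5% of all genes with as many UMIs), 22 of 28 in mesenchyme-like (25.2%), 23 of 28 in branchial muscle-like (27.9%), 11 of 28 in epithelium-like (14.6%), 19 of 28 in neuron-like (15.8%), 14 of 25 in cardiomyocyte-like (11.4%) and 8 of 28 in mesothelium-like cells (22.7%). Intervals below 0 were counted for 3 genes in EC-like cells (23.7% of all genes), 1 in mesenchyme-like (21.3%), 2 in branchial muscle-like (23.8%), none in epithelium-like (2750 of all 13728 genes), 1 in neuron-like (25.9%), none in cardiomyocyte-like (15.5%) and 2 in mesothelium-like cells (16.9%). The median log2 ratio over the 28 genes was 0.22 in EC-like cells against -0.07 over all 14471 genes with as many UMIs, 0.33 against 0.02 in mesenchyme-like cells, 0.71 against 0.02 in branchial muscle-like cells, 0.25 against -0.05 in epithelium-like cells and 0.42 against -0.08 in neuron-like cells. It was 0.90 over 25 genes against -0.05 in cardiomyocyte-like cells, and 0.01 against 0.05 in mesothelium-like cells, where 14 of the 28 genes were higher and 14 lower. An interval above 0 in at least 5 classes was found for 13 of the 28 genes, against 4.12% of all genes with enough UMIs in at least 5 classes, and Scap and Ebp had none in any class.

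**Figure D2:**
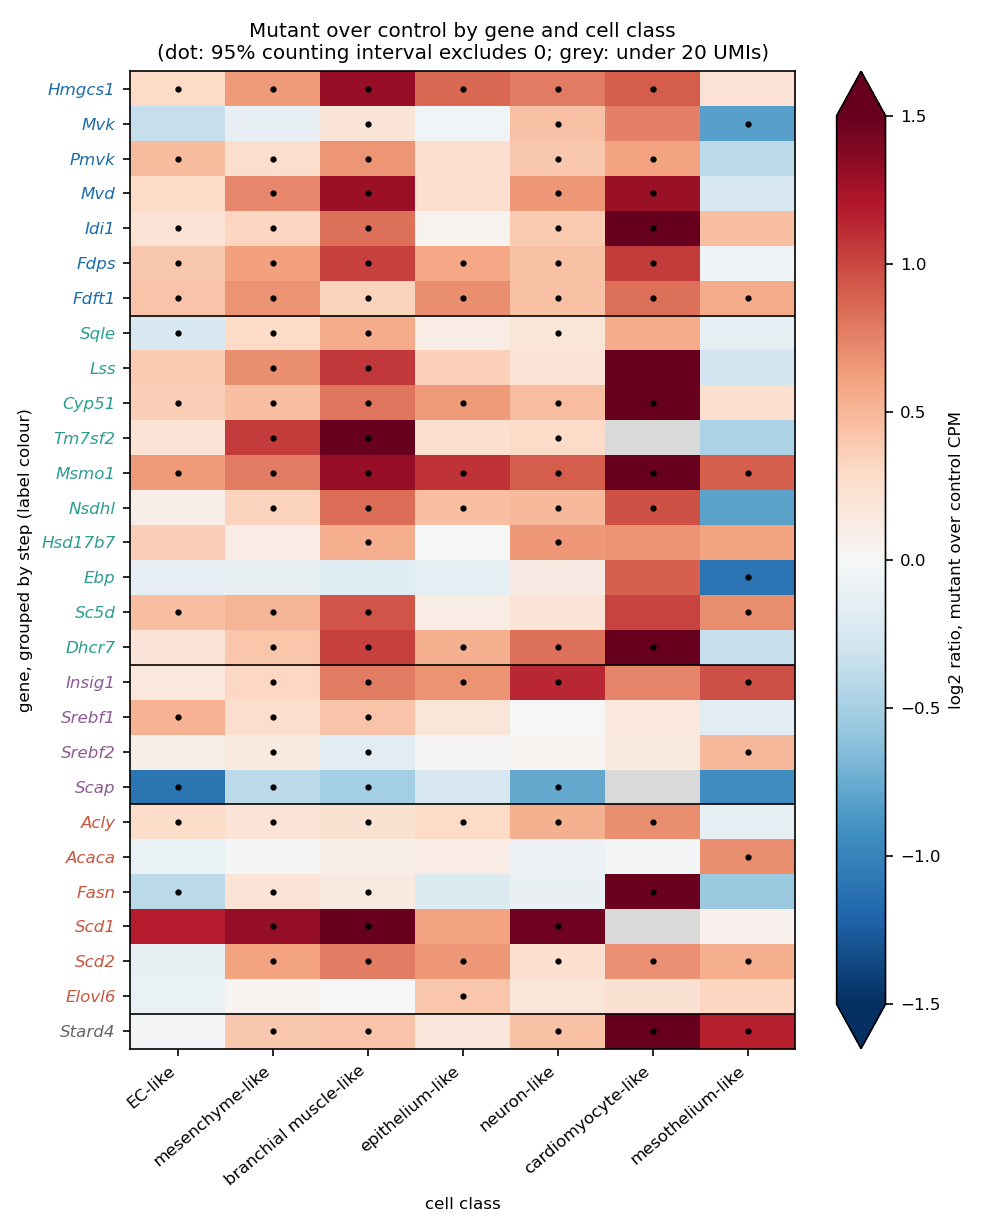
Log2 ratio of mutant over control CPM (colour) for each of the 28 genes (rows, grouped by step) in each of the 7 classes (columns); a dot marks a 95% counting interval that excludes 0 and grey marks fewer than 20 UMIs. Msmo1 and Fdft1 have a dot in all 7 classes, the Scap row is blue in all 6 classes with enough UMIs, and the branchial muscle-like column has 25 dots, 23 of them higher and 2 lower.

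Counts past a fold of 1.5 were read beside the share of all genes past it. In EC-like cells, 2 of the 28 genes were at least 1.5-fold higher, where 14.5% of all genes were, and 1 was as far lower, where 14.7% were. Those higher were Msmo1 and Scd1. Scd1 was near the floor, with 1 UMI in control and 15 in mutant G1 cells, and its interval over all EC-like cells included 0. In mesenchyme-like cells, 9 of 28 were past it upwards (14.0% of all genes) and none downwards (10.9%). In branchial muscle-like cells, 15 of 28 were past it upwards (16.9% of all genes) and none downwards (9.97%). In epithelium-like cells, 7 of 28 were past it upwards (10.8% of all genes) and none downwards (12.2%). In neuron-like cells, 7 of 28 were past it upwards (8.28% of all genes) and 1, Scap, downwards (18.5%). In cardiomyocyte-like cells, 20 of 25 were past it upwards (13.6% of all genes) and none downwards (21.5%). These ratios rest on 54 control cells with 545 UMIs of the 28 genes, against 3856 UMIs in mutant cells. Control levels were near the floor for some genes, such as Dhcr7 at 1.15 CPM, and 14 of the 25 intervals lay above 0. In mesothelium-like cells, 6 of 28 were past it upwards (24.1% of all genes) and 4 downwards (14.9%). The EC-like and mesothelium-like shares upwards therefore did not exceed those of all genes, while those of the other 5 classes did. All genes here are those with at least 20 UMIs and were not matched to the 28 genes in their counts. In EC-like cells the median ends of the intervals were -0.46 and 0.30 for all genes and -0.12 and 0.47 for the 28. The part of counting error in the shares, by fold or by interval, was not tested. In female-like cells the count upwards was 3 of 28 in mesenchyme-like cells (14.6% of all genes), a share below that of all genes, and 4 of 28 in epithelium-like cells (7.95%).

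The route from acetyl-CoA to squalene was higher as a sum in 6 classes, with log2 ratios from 0.33 (0.25 to 0.40) in EC-like to 0.98 (0.81 to 1.15) in cardiomyocyte-like cells, and at 0.08 (-0.09 to 0.25) in mesothelium-like cells. Hmgcs1, the cytosolic HMG-CoA synthase that feeds the mevalonate route (chr13:119690379-119708260, GRCm38), was at 77.1 CPM (73.6 to 80.8) in control and 190 CPM (184 to 196) in mutant branchial muscle-like cells, a log2 ratio of 1.30 (1.22 to 1.38). In neuron-like cells it was at 397 and 681 CPM, in epithelium-like cells at 144 and 262 CPM, in mesenchyme-like cells at 174 and 270 CPM, in cardiomyocyte-like cells at 115 and 216 CPM and in EC-like cells at 122 and 150 CPM. Its interval lay above 0 in those 6 classes and included 0 in mesothelium-like cells, at 93.9 and 109 CPM. Fdft1, squalene synthase and the first enzyme committed to sterols, was higher in all 7 classes, with log2 ratios from 0.34 in branchial muscle-like to 0.82 in cardiomyocyte-like cells, and its level in EC-like cells was 69.5 and 93.8 CPM. Fdps, which makes farnesyl pyrophosphate, was at 122 and 247 CPM in branchial muscle-like cells and had an interval above 0 in 6 classes. Idi1, the isomerase of isopentenyl pyrophosphate, and Pmvk, phosphomevalonate kinase, each had one in 5 classes, and Mvd, the decarboxylase that follows Pmvk, in 4. Mvk, mevalonate kinase, followed the group in fewer classes. It was higher in 3 of 7 classes, with intervals above 0 in branchial muscle-like and neuron-like cells. In mesothelium-like cells its interval lay below 0, at 37.3 and 21.2 CPM.

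Among the 10 genes from squalene to cholesterol, Msmo1, the sterol-C4-methyl oxidase (chr8:64718139-64733792), had an interval above 0 in all 7 classes. Its level was 27.8 CPM in control and 68.8 CPM in mutant branchial muscle-like cells, 51.9 and 110 CPM in epithelium-like cells, 83.9 and 157 CPM in neuron-like cells, 53.9 and 92.3 CPM in mesenchyme-like cells, 51.9 and 80.8 CPM in EC-like cells, 25.8 and 47.9 CPM in mesothelium-like cells and 10.4 and 31.4 CPM in cardiomyocyte-like cells. Its log2 ratio was lowest in EC-like cells, at 0.64 (0.41 to 0.87). Cyp51, the lanosterol demethylase, was higher in all 7 classes with 6 intervals above 0, and Dhcr7, the last enzyme of the Kandutsch-Russell route, and Nsdhl, which acts with Msmo1 in removing the C4 methyl groups, had 5 each. Sc5d, the sterol desaturase, had 4. Lss, lanosterol synthase, and Hsd17b7, the sterol ketone reductase, had 2 each, at levels of no more than 62.5 CPM in any class and library. Tm7sf2, a sterol reductase, was 1.65 (1.32 to 1.98) higher on the log2 scale in branchial muscle-like cells, but it overlaps Vps51 on the same strand and its reads may be shared with that gene. Sqle, squalene epoxidase, was lower in EC-like cells, at 65.3 and 55.4 CPM with a log2 ratio of -0.24 (-0.45 to -0.02). It was higher in branchial muscle-like cells, at 39.3 and 57.8 CPM. Ebp, the sterol isomerase, had no interval above 0, and in mesothelium-like cells it was lower, at 23.9 and 11.1 CPM. Ebp and Nsdhl are X-linked, and for the log2 ratio of male-like over female-like cells within the mutant library their intervals included 0 in all 7 classes.

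The genes that control SREBPs went different ways. Insig1, whose product retains the SREBP-Scap complex and which is itself a known SREBP target, was higher in all 7 classes. It was at 43.5 CPM in control and 95.6 CPM in mutant neuron-like cells, a log2 ratio of 1.14 (0.89 to 1.38), at 29.4 and 50.4 CPM in branchial muscle-like cells, and at 37.1 and 41.5 CPM in EC-like cells, where the interval (-0.11 to 0.45) included 0. Srebf2, which encodes the SREBP tied most to sterol genes, had log2 ratios near 0, at 0.09 (-0.13 to 0.32) in EC-like and 0.03 (-0.13 to 0.19) in neuron-like cells. Its interval lay just below 0 in branchial muscle-like cells (102 and 90.7 CPM) and above 0 in mesothelium-like (58.4 and 82.1 CPM) and mesenchyme-like cells (71.4 and 78.4 CPM). Srebf1, which encodes the SREBP tied most to fatty acid genes, was at 16.8 and 24.2 CPM in EC-like cells and its interval was above 0 there and in the branchial muscle-like and mesenchyme-like classes.

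Scap was the one gene of the 28 that was lower in every class with at least 20 UMIs. Its level (chr9:110333288-110384950) was 19.7 CPM (15.3 to 24.9) in control and 9.23 CPM (7.75 to 10.9) in mutant EC-like cells, from 69 and 138 UMIs, a log2 ratio of -1.09 (-1.52 to -0.65). It was 28.4 and 16.6 CPM in neuron-like cells, 19.9 and 14.0 CPM in branchial muscle-like cells and 22.4 and 17.0 CPM in mesenchyme-like cells, with intervals below 0 in all of these. In epithelium-like cells (25.3 and 21.2 CPM) and mesothelium-like cells (19.3 and 10.1 CPM) the interval included 0, and cardiomyocyte-like cells held only 6 and 9 UMIs. In female-like cells the log2 ratio was -1.10 (-1.66 to -0.54) in EC-like, -0.84 in neuron-like, -0.55 in mesenchyme-like and -0.77 in branchial muscle-like cells. Within EC-like cells it was -1.28 in G1, -0.61 in S and -1.33 in G2/M, and the interval in S included 0.

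The 6 genes of fatty acid synthesis were higher as a sum in all classes but EC-like cells, with log2 ratios from 0.25 (0.19 to 0.32) in neuron-like to 0.72 (0.43 to 1.03) in cardiomyocyte-like cells. They summed to 365 CPM in control and 352 CPM in mutant EC-like cells, a log2 ratio of -0.05 (-0.14 to 0.04), while the 7 genes to squalene summed to 453 and 567 CPM, a log2 ratio of 0.33 (0.25 to 0.40), and the 10 genes to cholesterol to 309 and 363 CPM, a log2 ratio of 0.23 (0.14 to 0.33). The intervals of the fatty acid sum and the sterol sums did not overlap over all EC-like cells. In their G1 cells they did overlap, at 0.01 (-0.13 to 0.16) for fatty acids, 0.20 (0.08 to 0.33) to squalene and 0.24 (0.09 to 0.40) to cholesterol. In S cells the fatty acid sum, at -0.08 (-0.24 to 0.08), overlapped the genes to cholesterol, at 0.23 (0.07 to 0.39). It did not overlap the genes to squalene there, at 0.41 (0.28 to 0.54). The TMM factor adds 0.12 to every log2 ratio in EC-like cells, which leaves the distance between the sums as it is and turns the fatty acid sum to above 0. Fasn, the synthase that makes palmitate, was at 48.7 CPM (41.7 to 56.6) in control and 36.8 CPM (33.8 to 40.0) in mutant EC-like cells, a log2 ratio of -0.41 (-0.66 to -0.15), and -0.40 (-0.71 to -0.10) in their female-like cells. Its interval lay above 0 in mesenchyme-like (55.4 and 63.8 CPM), branchial muscle-like (49.6 and 54.6 CPM) and cardiomyocyte-like cells (13 and 135 UMIs). Acly, which makes cytosolic acetyl-CoA for both routes, was higher in 6 classes with intervals above 0, including EC-like cells at 74.4 and 90.1 CPM. Acaca, the acetyl-CoA carboxylase, and Elovl6, the elongase of long-chain fatty acids, had an interval above 0 in 1 class each. Scd2, a stearoyl-CoA desaturase, was at 158 and 146 CPM in EC-like cells and higher in the other 6 classes, reaching 270 and 423 CPM in epithelium-like cells. Its paralog Scd1 was low, but in branchial muscle-like cells it was at 2.09 and 8.19 CPM, a log2 ratio of 1.97 (1.5 to 2.46), and reads may be split between such near copies.

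Across the pathway in EC-like cells, 19 of the 28 genes were higher, where 43.4% of all genes were. The 10 genes with intervals above 0 were Hmgcs1, Pmvk, Idi1, Fdps, Fdft1, Cyp51, Msmo1, Sc5d, Srebf1 and Acly, of which 8 belong to the sterol routes. The 3 with intervals below 0 were Sqle, Scap and Fasn. In female-like EC-like cells (145 control and 250 mutant), 27 genes had enough UMIs. Of their intervals, 8 lay above 0 (14.7% of all genes) and 3 below (23.2%). None of the 27 was at least 1.5-fold higher, and the share of all genes past that fold was not taken in these cells. The intervals of the pair of EC-like clusters overlapped. In the larger cluster, led by Aplnr and Emcn (127 and 610 cells), the log2 ratio of the sum was 0.18 (0.13 to 0.23), and in the smaller, led by the arterial genes Gja4 and Bmx (34 and 137 cells), it was 0.06 (-0.04 to 0.17). The 11 neuron markers summed to 243 CPM in control and 410 CPM in mutant EC-like cells. Neuron-like RNA at the share set by these markers would carry 140 CPM of the 28 genes in mutant EC-like cells. The 28 genes summed to 1351 CPM in control and 1511 CPM in mutant cells. The amount in control cells, which held these markers too, was not reckoned. The 140 CPM is therefore not a difference between the libraries, and the part of such RNA in the result was not tested.

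**Figure D3:**
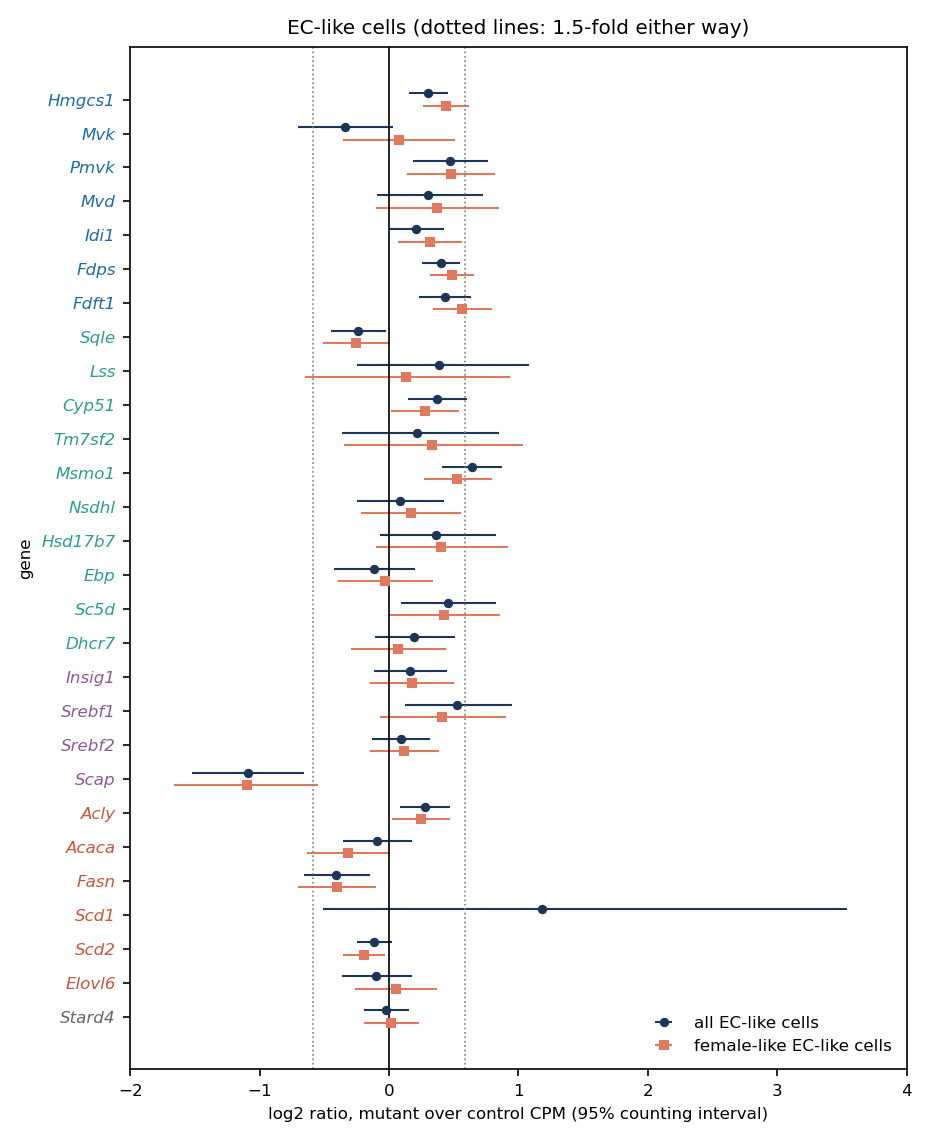
Log2 ratio of mutant over control CPM for each of the 28 genes in all EC-like cells (circles) and in female-like EC-like cells (squares), with 95% counting intervals; genes with fewer than 20 UMIs in female-like cells have no square, and dotted lines mark 1.5-fold. Scap lies at -1.09 and -1.10, Fasn at -0.41 and -0.40, and Msmo1 at 0.64 and 0.53.

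The 34 other lipid genes had a median ratio near 0 in EC-like cells. Some take part in uptake, storage, export and remodelling, and others in sterol and fatty acid synthesis or in SREBP control. They are therefore not a set free of synthesis genes. Of 33 with at least 20 UMIs, 16 were higher, 7 intervals lay above 0 and 8 below, shares near those of all genes (16.5% and 23.7%), and the median log2 ratio was -0.03. The largest differences among those with at least 100 UMIs were in genes of lipid droplets, cholesterol ester formation, fatty acid uptake and cholesterol export. Hilpda, a lipid droplet protein that restrains lipolysis, was at 17.1 CPM in control and 100 CPM in mutant EC-like cells, a log2 ratio of 2.55 (2.18 to 2.95). Soat1, which esterifies cholesterol for storage, was at 49.9 and 90.2 CPM and Plin2, a coat protein of lipid droplets, at 29.4 and 47.9 CPM. Cd36, a fatty acid transporter, was lower at 76.7 and 22.8 CPM, a log2 ratio of -1.75 (-1.98 to -1.51), as were the cholesterol exporters Abca1 at 101 and 62.2 CPM and Abcg1 at 15.4 and 8.22 CPM. In branchial muscle-like cells, by contrast, Abca1 was higher, at 1.28 and 2.47 CPM with a log2 ratio of 0.95 (0.26 to 1.66), as was Abcg1, at 1.32 and 8.03 CPM with a ratio of 2.60 (2.04 to 3.21).

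The ratios were taken again within cell-cycle phases. The phases made up like shares of EC-like cells, with 26.6% of control and 23.5% of mutant cells in S and 24.7% of each in G2/M. The share in S was 39.1% of control and 45.5% of mutant branchial muscle-like cells. It was 27.2% and 20.7% in mesenchyme-like and 28.4% and 22.0% in epithelium-like cells. G1 cells made up 51.4% of control and 74.6% of mutant mesothelium-like cells, and 57.4% and 39.3% of cardiomyocyte-like cells. Within a library the level differed by phase in some classes. Over G1 cells, the sum was higher in S cells by a log2 ratio of 0.30 in control and 0.33 in mutant EC-like cells, 0.35 and 0.17 in branchial muscle-like cells, and 0.36 and 0.12 in epithelium-like cells. In neuron-like cells, most of which were in G1 (89.2% and 89.1%), the few mutant cells in S and G2/M lay below those in G1, by -0.52 and -0.41, while the control values of 0.08 (-0.06 to 0.21) and -0.06 (-0.17 to 0.04) included 0. In mesenchyme-like cells the S value was 0.08 (0.04 to 0.12) in control and 0.0023 (-0.05 to 0.05) in mutant cells, and in cardiomyocyte-like and mesothelium-like cells the S intervals included 0 in both libraries. In mutant EC-like cells, Idi1, Nsdhl and Hsd17b7 were 0.67, 0.75 and 0.71 higher in S than in G1 on the log2 scale, whereas Srebf1 was lower, at -0.63 (-1.03 to -0.25).

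Between genotypes, the ratio of the sum kept its direction within each phase of the 5 classes EC-like, mesenchyme-like, branchial muscle-like, epithelium-like and cardiomyocyte-like. In EC-like cells it was 0.16 in G1, 0.19 in S and 0.12 in G2/M, with all 3 intervals above 0. In branchial muscle-like cells it was 0.71 (0.66 to 0.76) in G1, 0.52 (0.49 to 0.56) in S and 0.63 (0.59 to 0.67) in G2/M, and the G1 and S intervals did not overlap. The median over genes in these cells was 0.96 in G1 and 0.47 in S. In epithelium-like cells the ratio was 0.60 in G1 and 0.36 in S, again with no overlap. In mesothelium-like cells it was 0.21 (0.07 to 0.34) in G1 and -0.0014 (-0.21 to 0.20) in S, from 20 and 10 cells. In neuron-like cells it was 0.50 (0.47 to 0.53) in G1 and 0.15 (0.03 to 0.28) in G2/M, from 14 and 32 cells. In EC-like cells the 7 genes to squalene gave 0.20 in G1, 0.41 in S and 0.39 in G2/M, and Hmgcs1 alone 0.05 (-0.17 to 0.29) in G1 and 0.60 (0.33 to 0.88) in S.

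**Figure D4:**
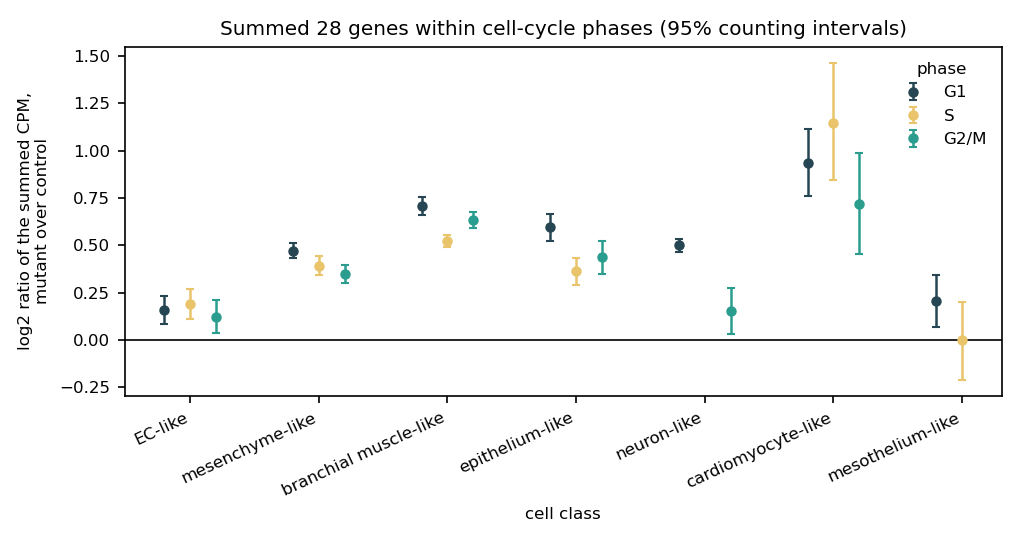
Log2 ratio of mutant over control for the summed CPM of the 28 genes within cells called G1, S and G2/M, by class, with 95% counting intervals; phases with fewer than 10 cells in a library are left out. All 3 phases lie above 0 in EC-like cells, at 0.16, 0.19 and 0.12, and in branchial muscle-like cells, at 0.71, 0.52 and 0.63.

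The sex of the cells moved with the level in most classes. Within the mutant library, the sum in male-like over female-like cells had a log2 ratio of 0.33 (0.28 to 0.37) in mesenchyme-like cells and 0.41 (0.35 to 0.47) in epithelium-like cells, against 0.13 (0.10 to 0.16) in branchial muscle-like, 0.04 (-0.12 to 0.22) in mesothelium-like, -0.08 (-0.12 to -0.04) in EC-like and -0.06 (-0.09 to -0.02) in neuron-like cells. It was -0.44 (-0.60 to -0.27) in cardiomyocyte-like cells, with 83 male-like and 12 female-like cells. The EC-like, neuron-like and cardiomyocyte-like values went against the direction of mutant over control. When only female-like cells of both libraries were compared, the ratio of mutant over control was 0.19 (0.14 to 0.23) in mesenchyme-like cells, where it was 0.42 over all cells, and 0.21 (0.15 to 0.26) in epithelium-like cells, where it was 0.45. The median over genes was 0.12 and 0.09. In mesenchyme-like cells 8 intervals lay above 0 in female-like cells (18.6% of all genes) and 3 below (15.8%), against 22 and 1 over all cells, and Msmo1 was at 0.15 (-0.10 to 0.39). In epithelium-like cells 9 of 28 intervals lay above 0 in female-like cells and 3 below, against 11 and 0 over all cells. The shares of all genes with such intervals were not taken in these female-like cells. Idi1, Sqle and Sc5d were lower in them, at -0.43, -0.50 and -0.58. Male-like cells come from other embryos of the pool than female-like cells, so sex and embryo cannot be told apart. In EC-like, branchial muscle-like and neuron-like cells, the ratio in female-like cells was 0.18 (0.13 to 0.24), 0.53 (0.50 to 0.56) and 0.49 (0.45 to 0.53), beside 0.16, 0.60 and 0.44 over all cells. In female-like branchial muscle-like cells 19 of 28 intervals lay above 0 (20.2% of all genes) and 1 below (21.2%), and in female-like neuron-like cells 20 of 28 (1996 of all 13338 genes) and 1 (24.9%). Cardiomyocyte-like cells held only 11 and 12 female-like cells, with a ratio of 0.78 (0.54 to 1.03).

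**Figure D5:**
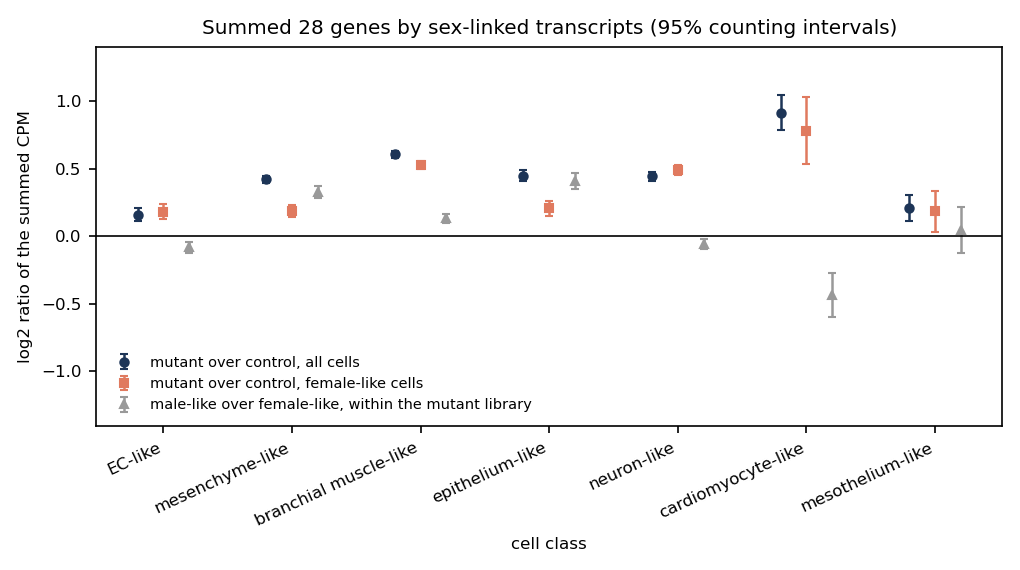
Log2 ratio of the summed CPM of the 28 genes by class, for mutant over control in all cells (circles), mutant over control in female-like cells (squares) and male-like over female-like cells within the mutant library (triangles), with 95% counting intervals. Squares and circles lie at 0.19 and 0.42 in mesenchyme-like cells and at 0.49 and 0.44 in neuron-like cells.

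Clusters within a class differed in their level and their ratio. In the branchial muscle-like cluster led by Myh3 and Mymk, genes of muscle fibres and myoblast fusion (189 control and 134 mutant cells), the median log2 ratio of the genes was 1.01 and the sum went from 958 to 1542 CPM. In the Pax7-led cluster of muscle progenitors (154 and 183 cells) the sum was higher in both libraries, at 1820 and 2410 CPM. Its ratio was 0.41 (0.34 to 0.47), with a median over genes of 0.56. Its cells were shallower, with a median of 8883 UMIs against 20363 in the Myh3-led cluster. The larger clusters of this class (331 and 335 cells, and 215 and 188 cells) had ratios of the sum of 0.67 (0.63 to 0.70) and 0.51 (0.47 to 0.56). Of the neuron-like clusters, the one led by Neurod1 and sensory neuron sodium channels (65 and 131 cells) gave 2774 and 4321 CPM, a ratio of 0.64 (0.59 to 0.69), and the one led by Otp and Lhx5 (100 and 325 cells) 2412 and 3348 CPM, a ratio of 0.47 (0.42 to 0.52). The mesenchyme-like class was mostly 1 cluster in the mutant library (524 of 634 cells) and 2 in the control library (589 and 349 of 977), with ratios of 0.30 and 0.55 in those clusters.

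Transcripts of cells outside a class differed between the libraries. The mutant library alone held 47 hepatoblast-like cells, and the 10 hepatoblast markers summed to between 0.896 and 4.63 CPM in the 7 control classes, with 5 to 9 markers at 0, and to between 23.4 and 47.5 CPM in the mutant classes. In hepatoblast-like cells these markers summed to 56482 CPM and the 28 genes to 6031 CPM. RNA of such cells at the share set by their markers would bring 2.50 to 5.07 CPM of the 28 genes to a mutant class, and the part of such RNA in the results was not tested. In cardiomyocyte-like cells the 11 neuron markers summed to 57.7 CPM in control and 149 CPM in mutant cells. The same reckoning for neuron-like cells gave 51.0 CPM in the mutant cells, beside sums of the 28 genes of 629 and 1186 CPM. It was made for the mutant library only, so 51.0 CPM is not a difference between the libraries. The 16 mesenchyme markers summed to 1397 and 3360 CPM in cardiomyocyte-like cells, and their part in the result was not tested.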

How the data were processed

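Per the labels and the study's methods, the authors sequenced 5′ droplet libraries, ran Cell Ranger 7.1.0 on GRCm38 and deposited unnormalized UMI counts per gene and cell; whether intronic reads were counted is not given in the sources used here. Cells passing the study's limits held 63153191 control and 69717583 mutant UMIs. They were integrated and clustered in Seurat 5.3.0 (R 4.3.3) with anchors, cell-cycle scores regressed, 2000 variable genes, 30 components and 20 neighbours. No resolution in steps of 0.1 gave the study's 15 clusters, so 0.4, the lowest with at least 15, was used (18 clusters). A name needed at least 3 raised markers; a cluster mixed with erythroid genes and the neural crest-like and hepatoblast-like clusters were not compared. For each class, UMIs of a library were summed and expressed as CPM of that class. Intervals (95%) were exact Poisson for CPM and conditional exact binomial for ratios, which needed 20 UMIs over both libraries. Phase calls used thinned cells of 5000 UMIs, so 61 shallower control cells and 173 mutant ones had none. Scrublet (scanpy 1.11.5) marked 0 control cells and 1 mutant cell, so it had not worked and doublets were kept. The ratio script was tested on simulated data. edgeR 4.0.16 supplied a scaling factor only. Gene positions came from GENCODE for GRCm38, promoters from RefSeq.

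The genes, lists and alternatives were chosen with earlier results of these data known, and the male-like with female-like comparison, the clusters described and the shorter motif after seeing values. Any of the 28 genes could be named, and of the other lipid genes the 3 largest differences each way among those with at least 100 UMIs in EC-like cells. Software was numpy 2.4.6, pandas 2.3.3, scipy 1.17.1 and matplotlib 3.10.9 under Python 3.11.15.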

Additional observations from a re-analysis of the deposited data

Results flagged for a closer look

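Some genes had log2 ratios of opposite sign in different classes, differences that were not tested because each genotype has 1 library. Sqle was at -0.24 in EC-like and 0.56 in branchial muscle-like cells, with intervals on either side of 0. Fasn was at -0.55 in mesothelium-like cells, where the interval reached 0.021, and at 1.47 in cardiomyocyte-like cells. Mvk was at -0.81 in the mesothelium-like class and at 0.43 in the neuron-like class. Srebf2 was at -0.17 in branchial muscle-like and 0.49 in mesothelium-like cells. The mesothelium-like values rest on 70 control and 65 mutant cells.

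The 47 hepatoblast-like cells, which were outside the comparisons because the control library held none, had a summed level of the 28 genes of 6031 CPM (5921 to 6143), above that of every other class in either library.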

How the results depend on the processing

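The class medians were recomputed with high doublet scores removed, without integration, with classes from marker counts, in female-like, G1, S and G2/M cells, in thinned cells, with edgeR's TMM factor or a median ratio as the scaling, as a mean over cells and, as to the genes kept, with list minimums of 1 and 100 UMIs and with a mitochondrial limit of 5%. They stayed above 0 in 6 classes, from 0.10 to 0.33 in EC-like, 0.12 to 0.45 in mesenchyme-like, 0.47 to 0.96 in branchial muscle-like, 0.09 to 0.39 in epithelium-like, 0.24 to 0.53 in neuron-like and 0.62 to 1.09 in cardiomyocyte-like cells, and ran from -0.13 to 0.47 in mesothelium-like cells. Outside the median of the genes' intervals lay the mesenchyme-like median in female-like cells (0.12) and the branchial muscle-like median in female-like (0.51), G1 (0.96) and S cells (0.47). The count of 2 genes at least 1.5-fold higher in EC-like cells became 0 in female-like cells, 4 in G1 and 4 in S cells, 5 in G2/M cells, 4 with the TMM factor, 1 with at least 100 UMIs and 4 with the 5% limit. The count lower was 1 throughout. The shares of all genes past that fold were not taken under these alternatives, so the changes in the count cannot be set against them. TMM moved all log2 ratios by 0.12 in EC-like, 0.11 in neuron-like, 0.15 in cardiomyocyte-like and -0.13 in mesothelium-like cells, where the median became -0.12. The doublet setting ranked cells by the scores of Scrublet, which had not worked here, so it cannot show the effect of doublets.

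Of 2252 single values, 1914 stayed within the reported interval and 156 had the other sign than as reported, 134 of them where the reported interval included 0. The 22 where it excluded 0 were these. In G2/M neuron-like cells (14 control cells), Mvk was at -0.12, Fdps -0.15, Fdft1 -0.15, Cyp51 -0.089, Insig1 -0.47, Acly -0.062 and Scap 0.83. In female-like cells, Idi1 was at -0.019 in mesenchyme-like, Pmvk at -0.24 and Fdps at -0.079 in cardiomyocyte-like, and Fdft1 at -0.048 and Stard4 at -0.10 in mesothelium-like cells. In S cells, Mvk was at -0.029, Srebf2 at 0.019 and Fasn at -0.032 in branchial muscle-like, Fasn at -0.076 in mesenchyme-like, and Srebf2 at -0.055, Scd2 at -0.027 and the sum at -0.0014 in mesothelium-like cells. In G2/M cells, Srebf2 was at -0.22 in mesenchyme-like and Nsdhl at -0.20 in cardiomyocyte-like cells, and Fasn was at -0.14 in thinned branchial muscle-like cells. The cause was not tested. Neuron-like S cells and mesothelium-like G2/M cells, with fewer than 10 cells in a library, gave no value. No paired analysis was possible because each genotype has 1 library.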

Other observations

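Among clusters that were not compared, the sum of the 28 genes was 904 CPM in control and 1085 CPM in mutant cells of a cluster with macrophage, myeloid and erythroid genes (174 and 176 cells), a log2 ratio of 0.26 (0.20 to 0.32). In neural crest-like cells (54 and 24 cells) it was 1645 and 1455 CPM, a ratio of -0.18 (-0.31 to -0.04). The median log2 ratio there was -0.17 over the 24 genes with enough UMIs, against -0.10 over all genes. Of these 24 genes, 9 were higher, and the share of all genes that were higher was not taken.

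Outside EC-like cells, and chosen after their values were seen, Soat1 was at 70.9 CPM in control and 234 CPM in mutant mesothelium-like cells, and Cd36 was at 2.92 and 17.9 CPM in epithelium-like and at 67.0 and 14.8 CPM in cardiomyocyte-like cells.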
